A study of Mus musculus with 8 samples.

Results

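The genes of the endoplasmic reticulum (ER) chaperones and the unfolded protein response were followed as a set of 34, taken by symbol, in RNA from mouse CD4+ T cells. All 34 symbols were found among the 23366 genes of the deposited count table, and all 34 passed the filter on low counts that left 11629 genes for testing. The rule goes by gene function and uses no measured value, but the genes were chosen with earlier results of these data known. It covers the stress sensors and their factors, HSP70-type and HSP90-type chaperones, J-domain cochaperones, lectin chaperones, oxidoreductases, secretable stress proteins, ER-associated degradation and the translocon.

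The study sequenced RNA of C57BL/6 CD4+ T cells in 8 libraries, 2 in each of 4 groups. Naive cells sorted from spleen and lymph node received antibodies to CD3e and CD28 together with TGFb and IL-6 for 3 days, which turns them towards Th17 cells, the helper subset that makes IL-17. During this time they were given PAM3CSK4 (replicates 3 and 4), biglycan (replicates 7 and 8) or no ligand (Th17, replicates 1 and 2), and naive cells labelled as without treatment (replicates 1 and 2) made up the other group. PAM3CSK4 is a synthetic lipopeptide that activates Toll-like receptor 2 (TLR2), and biglycan, a proteoglycan of the extracellular matrix, is known as a ligand of the same receptor. The dose of biglycan is not clear from the series text. Activation, polarization, time in culture and the handling of the cells before RNA was taken cannot be told apart in Th17 against naive cells. The labels name no separate animals or cultures within a group, so p-values measure the spread of these libraries only, and that spread may be technical.

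Secreted and membrane proteins enter the ER through the Sec61 channel and fold there with the help of chaperones and of oxidoreductases that form disulfide bonds, while proteins that fail to fold are returned to the cytosol and degraded. When unfolded proteins accumulate, the sensors IRE1, PERK and ATF6 raise transcription of chaperone and degradation genes and lower protein synthesis. T cells that are activated and begin to secrete cytokines are known to draw on these pathways.

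Gene counts per library ranged from 7012244 to 12533045, and 12847 to 13774 genes had at least 1 count. Mitochondrial RNA took 14.3 to 16.1% of reads in the 6 cultured libraries and 12 and 9.87% in the naive libraries. The 8 T cell markers summed to 5667 to 6015 CPM in the cultures and 5770 and 5937 CPM in naive cells (CPM, gene counts scaled to the library's size). These similar sums hide opposite changes. Cd28 had 2740 and 2510 CPM in Th17 cells, against 1160 and 1010 CPM in naive cells, and Cd4 605 and 642, against 1230 and 1120 CPM. Only 1 of the 8, Cd28, had a log2 fold change of Th17 over naive above 0. The median was -0.61 over the 8 and 0.035 over all genes tested. The 7 Th17 markers summed to 1827 to 2993 CPM in the cultures, against 11 and 14.3 CPM in naive cells, and the 7 naive T cell markers to 3485 to 4388 CPM, against 8552 and 8951 CPM. Markers of B cells summed to 0.841 to 2.75 CPM in the cultures and 3.03 and 4.63 CPM in naive cells, those of myeloid cells to 5.33 to 7.74 and 12.1 and 15.4 CPM, and those of CD8 T and NK cells to 48.9 to 69.5 and 88.7 and 89.2 CPM. The last sum mixes opposite changes. Klrd1 had 41.9 to 60.2 CPM in the cultures and 15.8 and 15.9 CPM in naive cells. Prf1 had 1.9 to 2.61 and 50.6 and 51.3 CPM, and Cd8b1 4.25 to 7.05 and 20.9 and 20 CPM. Plasma cells use this pathway heavily. Of their 6 markers, Tnfrsf17 was at 0 in all 8 libraries, Igj reached at most 0.21 CPM and Mzb1 at most 0.0904 CPM, while Sdc1 had 62.9 to 127 CPM in the cultures and 0.299 and 0.253 CPM in naive cells. Derl3, which encodes an ER degradation protein, had 2.17 to 4.74 CPM in the cultures and 0.299 and 0.379 CPM in naive cells. Prdm1, a transcription factor gene also used by T cells, went the other way, with 0.29 to 0.741 CPM in the cultures and 11.5 and 9.35 CPM in naive cells. In bulk RNA, fewer cells of a type and less RNA per cell cannot be told apart.

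Several members share a short promoter sequence. Motifs and members were both chosen as parts of the ER stress response, with earlier results of these data known. The shares below therefore describe the set and are no independent test of it. The ER stress response element (ERSE) has the letters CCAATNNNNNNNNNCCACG, and ERSE-II has ATTGGNCCACG. Both were searched on both strands in RefSeq promoter windows of build GRCm38.p6, which run from 250 bases before to 50 after each start site. Windows were matched for 27 of the 34 members. ERSE was found in 8 of these 27 genes, or 29.6%, against 37 of all 27025 genes with a window, or 0.137%. ERSE-II was found in 2 of the 27 members, or 7.41%, against 12 of all genes, or 0.0444%. The second box CCACG, which is part of every ERSE and ERSE-II, was found in 22 of the 27 members, or 81.5%, against 35.5% of all genes. The core TGACGTGG of the unfolded protein response element was found in 0 of the 27 members and in 0.714% of all genes. A match describes the letters of a window and is neither a mapped binding site nor a cause of any change. The matches are shown 5′ to 3′ on the strand that carries them, fixed letters in capitals, because they let the boxes and the 9 bases between them be compared across the chaperone genes:
Hspa5, ERSE, chr2:34772025-34772043, plus strand: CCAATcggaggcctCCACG
Hsp90b1, ERSE, chr10:86705638-86705656, minus strand: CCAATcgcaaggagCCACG
Hsp90b1, ERSE, chr10:86705533-86705551, plus strand: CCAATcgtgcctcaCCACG
Dnajb11, ERSE-II, chr16:22857852-22857862, plus strand: ATTGGcCCACG
Dnajc3, ERSE, chr14:118937827-118937845, plus strand: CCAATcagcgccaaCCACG
Calr, ERSE, chr8:84847075-84847093, plus strand: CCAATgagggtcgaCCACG
Canx, ERSE, chr11:50325800-50325818, minus strand: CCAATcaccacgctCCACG
Pdia6, ERSE, chr12:17266491-17266509, plus strand: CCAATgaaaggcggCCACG
Creld2, ERSE, chr15:88819520-88819538, minus strand: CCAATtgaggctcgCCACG
Herpud1, ERSE-II, chr8:94386377-94386387, plus strand: ATTGGgCCACG
Syvn1, ERSE, chr19:6046532-6046550, plus strand: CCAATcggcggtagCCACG

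**Figure D1:**
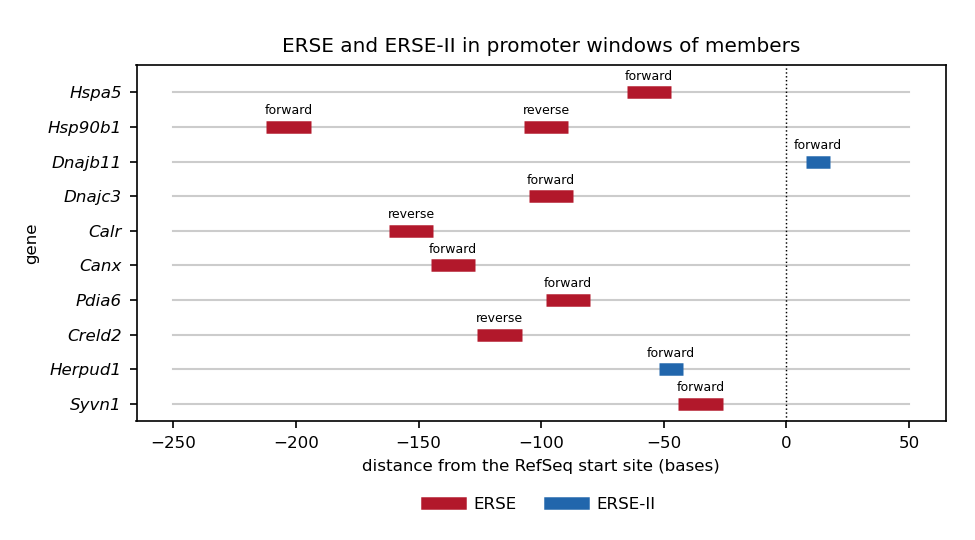
Positions of ERSE (red) and ERSE-II (blue) in the promoter windows of the 10 members that hold them. The x axis is the distance from the RefSeq start site in bases, and grey lines span the window from 250 bases before to 50 after it. All ERSE matches lie upstream of the start site, from -212 to -26, and the ERSE-II match of Dnajb11 lies downstream, from 8 to 18.

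Whole windows are shown for Hspa5, Herpud1 and Calr, which hold an element and were lower in Th17 than in naive cells. That of Dnajb9, which had the largest fold change but holds neither element, is also shown. These genes were picked by their change. Canx and Pdia6 hold ERSE but were higher in Th17 cells, and Edem1 holds neither element but was lower. Their windows are not shown. Capitals mark the fixed letters of ERSE and ERSE-II. In Hspa5 the match ends 47 bases before the start site, in Herpud1 it ends 42 bases before it, and in Calr it lies on the strand opposite to the gene. Coordinates are those of GRCm38.p6, whereas the deposited counts were made on build mm9:
Hspa5, chr2:34771840-34772139, plus strand: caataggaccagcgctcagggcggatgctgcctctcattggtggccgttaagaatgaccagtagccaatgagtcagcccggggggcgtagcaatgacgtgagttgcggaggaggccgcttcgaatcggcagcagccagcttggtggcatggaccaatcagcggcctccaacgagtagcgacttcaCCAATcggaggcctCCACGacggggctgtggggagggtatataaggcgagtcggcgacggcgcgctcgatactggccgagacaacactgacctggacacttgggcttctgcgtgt
Herpud1, chr8:94386179-94386478, plus strand: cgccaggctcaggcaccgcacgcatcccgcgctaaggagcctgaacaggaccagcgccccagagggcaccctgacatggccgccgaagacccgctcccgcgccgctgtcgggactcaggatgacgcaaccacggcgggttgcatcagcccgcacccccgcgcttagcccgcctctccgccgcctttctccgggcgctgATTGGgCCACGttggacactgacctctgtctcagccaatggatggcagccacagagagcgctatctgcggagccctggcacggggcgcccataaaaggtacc
Calr, chr8:84846882-84847181, minus strand: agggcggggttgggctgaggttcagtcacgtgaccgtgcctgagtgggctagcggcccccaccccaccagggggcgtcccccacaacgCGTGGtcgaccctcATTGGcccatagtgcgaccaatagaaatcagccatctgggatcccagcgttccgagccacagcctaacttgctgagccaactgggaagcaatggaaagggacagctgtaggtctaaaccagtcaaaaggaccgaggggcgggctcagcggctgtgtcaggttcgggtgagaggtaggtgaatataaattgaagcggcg
Dnajb9, chr12:44210019-44210318, minus strand: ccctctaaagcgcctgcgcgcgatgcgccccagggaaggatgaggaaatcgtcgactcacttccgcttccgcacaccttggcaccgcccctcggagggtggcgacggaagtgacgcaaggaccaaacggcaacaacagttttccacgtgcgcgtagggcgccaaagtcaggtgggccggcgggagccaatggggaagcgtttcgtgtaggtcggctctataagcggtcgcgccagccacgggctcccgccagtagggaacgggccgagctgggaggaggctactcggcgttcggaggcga

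Levels of different genes were compared in the deposited RPKM, read counts that the authors scaled to gene length and library size. In Th17 cells P4hb, which encodes protein disulfide isomerase, was the most abundant member with 118 and 108 RPKM, followed by Ssr3 with 114 and 103 RPKM and Calr with 103 and 94.4 RPKM. In naive cells Hspa5 was the most abundant with 298 and 326 RPKM, followed by Calr with 140 and 154 RPKM and P4hb with 56.9 and 67.3 RPKM. Hspa5, which encodes BiP, the main HSP70 chaperone of the ER, was thus ranked 5 of 34 in Th17 cells (mean 90.3 RPKM) and 1 of 34 in naive cells (mean 312 RPKM). Dnajb9 was ranked 32 in Th17 cells (mean 5.97 RPKM) and 9 in naive cells (mean 40.7 RPKM). With PAM3CSK4, P4hb was first with a mean of 138 RPKM and Hspa5 the next at 134 RPKM. Differences between neighbours in these orders were not tested. Ern1 had the lowest level of the 34 in every group, with 3.68 and 3.74 RPKM with PAM3CSK4, 3.51 and 2.77 with biglycan, 2.75 and 2.78 in Th17 cells and 1.1 and 1.15 in naive cells. Of the 3 sensor genes Eif2ak3 was the most abundant, with means of 24.2 RPKM with PAM3CSK4, 31.4 with biglycan, 31.9 in Th17 cells and 13.4 in naive cells.

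**Figure D2:**
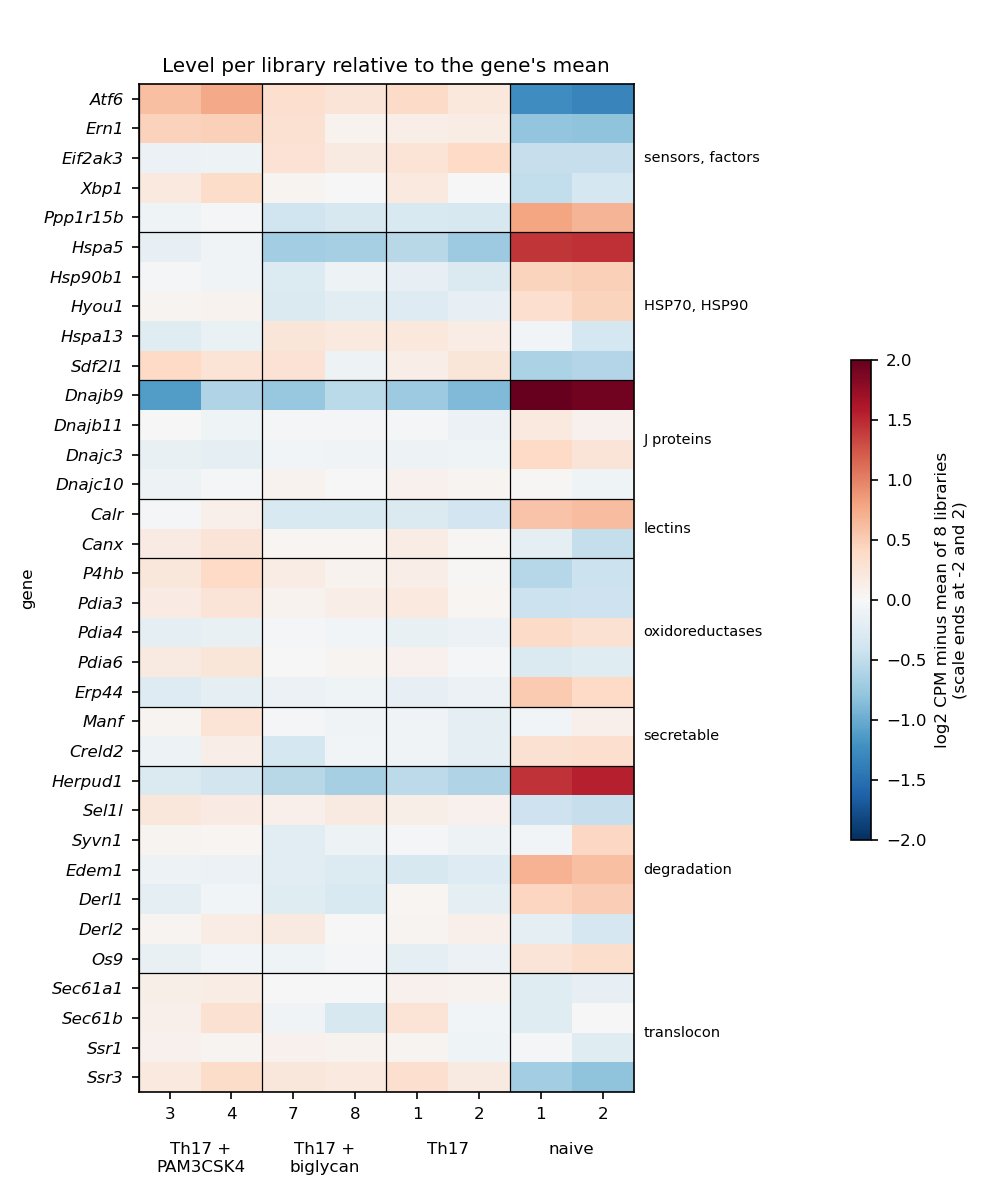
Level of each of the 34 members (rows, grouped by role) in each of the 8 libraries (columns), as log2 CPM minus the mean of that gene over the 8 libraries. Red is above and blue below the mean, and the colour scale ends at -2 and 2. The naive columns stand apart in most rows, with Hspa5, Dnajb9 and Herpud1 the darkest red and Atf6 the darkest blue.

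Setting Th17 cultures against naive cells asks how the ER folding genes differ between cultured, polarized cells and naive cells. The set split. Hspa5, Herpud1 and Dnajb9 were 4.23-fold, 4.18-fold and 8.83-fold lower in Th17 cells, whereas Atf6 was 3-fold and Ssr3 2.01-fold higher. By edgeR's quasi-likelihood test with Benjamini-Hochberg adjustment over all genes tested, 14 members were higher, 16 lower and 4 not called (Dnajc10, Manf, Sec61b and Ssr1). These are 41.2% and 47.1% of the members, against 37.8% of all genes called higher and 34.4% called lower. Libraries of Th17 and naive cells did not overlap for 31 of 34 members and for 84% of all genes. The median log2 fold change was -0.022 over the members and 0.035 over all genes. The 34 members summed to 6422 and 6071 CPM in Th17 cells, against 7921 and 7761 CPM in naive cells. Without Hspa5, which was left out after its level was seen, the sums were 5999 and 5694 CPM in Th17 cells and 6251 and 6049 CPM in naive cells.

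The 3 sensor genes were higher in Th17 cells. Atf6, whose product is cleaved in the Golgi to free a transcription factor, had 86.6 and 76.5 CPM in Th17 cells, against 27.9 and 26.5 CPM in naive cells (log2 fold change 1.59 ± 0.104 (SE), adjusted p = 2.23e-11). Ern1, which encodes the kinase and RNase IRE1, had 22.5 and 22.6 CPM in Th17 cells, against 11.8 and 11.8 CPM in naive cells (1.92-fold, adjusted p = 7.21e-06). Eif2ak3, which encodes PERK, the kinase that lowers translation through eIF2, had 249.5 and 270.5 CPM in Th17 cells, against 150.1 and 149 CPM in naive cells (1.74-fold, adjusted p = 1.41e-08). For all 3, both Th17 libraries lay above both naive libraries. Xbp1, the factor whose mRNA IRE1 splices, had 255 and 224 CPM in Th17 cells, against 158 and 173 CPM in naive cells (1.44-fold, adjusted p = 1.76e-05), in counts that do not separate its spliced and unspliced forms. Ppp1r15b, which directs a phosphatase to eIF2, was the exception, with 200.4 and 198 CPM in Th17 cells, against 426 and 396 CPM in naive cells (2.06-fold lower, adjusted p = 1.15e-10). Of the 50-base stretches of its transcript 10.7% also occur in Gm26616, and of those of Eif2ak3 7.64% occur in Gm43292.

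Hspa5 had 423 and 378 CPM in Th17 cells, against 1669 and 1712 CPM in naive cells. Both Th17 libraries lay far below both naive libraries, with a log2 fold change of -2.08 ± 0.0817 (SE, adjusted p = 4.41e-15). The HSP90 chaperone gene Hsp90b1 averaged 206 ± 13 CPM in Th17 cells and 331 ± 6.61 CPM in naive cells (SD, n = 2 libraries each, 1.61-fold lower, edgeR adjusted p = 2.27e-07), and 13.8% of its 50-base stretches occur in other genes such as 1810014B01Rik. Hyou1, which helps BiP exchange its nucleotide, had 118 and 126 CPM in Th17 cells, against 178 and 191 CPM in naive cells (1.52-fold lower, adjusted p = 8.01e-07). The less abundant members of this role went the other way. Sdf2l1, a partner of BiP, had 19.7 and 21.1 CPM in Th17 cells, against 11.5 and 11.9 CPM in naive cells (1.74-fold higher, adjusted p = 0.000168). Hspa13, an HSP70-like protein, had 52.9 and 50.9 CPM in Th17 cells, against 44.2 and 35.6 CPM in naive cells (1.31-fold higher, adjusted p = 0.00335), a call that was lost when naive replicate 2 was left out (log2 fold change 0.23, against 0.38 with all libraries, adjusted p = 0.0868).

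Dnajb9, a J protein that works with BiP, had 21.8 and 19.5 CPM in Th17 cells, against 231 and 136 CPM in naive cells. The groups do not overlap, and the naive libraries differ from each other. The log2 fold change of -3.14 ± 0.186 (SE, adjusted p = 4.1e-12) became -2.72 without naive replicate 1 and -3.48 without naive replicate 2, which is a change of the fold by over 1.5 times between these settings. Of its 50-base stretches 5.8% also occur in Gm6568. Dnajc3, which inhibits PERK, had 245 and 248 CPM in Th17 cells, against 349.6 and 314 CPM in naive cells (1.35-fold lower, adjusted p = 4.21e-05). Dnajb11, a cochaperone that binds unfolded chains, had 93.6 and 88 CPM in Th17 cells, against 109 and 101.1 CPM in naive cells (1.16-fold lower, adjusted p = 0.0296). That call was lost when naive replicate 1 (adjusted p = 0.144) or Th17 replicate 2 (adjusted p = 0.156) was left out. It was also lost by DESeq2 (adjusted p = 0.0828), with total count scaling (0.109), without the filter on low counts (0.0894) and with only the 4 libraries compared (0.067), while its log2 fold change was -0.15 to -0.26 over all 11 alternatives and -0.21 with all libraries. Dnajc10, a J protein that also reduces disulfide bonds, was not called, and the 95% interval of its log2 fold change was -0.059 to 0.26.

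The lectin chaperones, which hold glycoproteins while they fold, moved in opposite directions. Calr, which encodes the soluble calreticulin, had 353 and 330.5 CPM in Th17 cells, against 637 and 662 CPM in naive cells (1.9-fold lower, adjusted p = 1.12e-09). Canx, which encodes the membrane-bound calnexin, had 657 and 606 CPM in Th17 cells, against 520.1 and 424 CPM in naive cells (1.34-fold higher, adjusted p = 0.000286). Per length, the mean levels were 98.5 RPKM for Calr and 83 RPKM for Canx in Th17 cells, against 147 RPKM for Calr and 51.6 RPKM for Canx in naive cells.

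Of the 5 oxidoreductases, 3 were higher and 2 lower in Th17 cells (60% and 40%, against 37.8% and 34.4% of all genes). P4hb had 519.9 and 478 CPM in Th17 cells, against 317 and 351 CPM in naive cells (1.5-fold higher, adjusted p = 3.54e-06). Pdia3, which works with calnexin and calreticulin, was 1.46-fold and Pdia6 1.22-fold higher, and the Pdia6 call was lost without Th17 replicate 1 (log2 fold change 0.22, against 0.28 with all libraries, adjusted p = 0.0539). Pdia4 was 1.39-fold lower and Erp44, which retains proteins in the early secretory pathway, 1.52-fold lower. Of the secretable stress proteins, Creld2 had 16 and 14.9 CPM in Th17 cells, against 20.9 and 21.4 CPM in naive cells (1.37-fold lower, adjusted p = 0.0113), a call lost without Th17 replicate 2 (adjusted p = 0.0595) and by DESeq2 (adjusted p = 0.0552). Its log2 fold change was -0.39 to -0.51 over the 11 alternatives. Manf was not called, and the 95% interval of its log2 fold change was -0.34 to 0.049.

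Of the 7 genes of ER-associated degradation, 5 were lower and 2 higher in Th17 cells (71.4% and 28.6%). Among all genes tested 34.4% were called lower and 37.8% higher. Herpud1, a scaffold of the ubiquitin ligase complex, had 41.5 and 39.3 CPM in Th17 cells, against 162 and 175 CPM in naive cells (adjusted p = 1.59e-14). Edem1, which hands glycoproteins over for disposal, had 198 and 207 CPM in Th17 cells, against 399 and 377 CPM in naive cells (1.91-fold lower, adjusted p = 5.66e-10). Derl1, of the exit channel, was 1.45-fold lower and Os9, a lectin for trimmed glycans, 1.37-fold lower. Syvn1, which encodes the ubiquitin ligase HRD1, had 43.5 and 41.6 CPM in Th17 cells, against 43 and 59.8 CPM in naive cells. These libraries overlap, and its call (adjusted p = 0.043) rested on naive replicate 2, without which the log2 fold change was -0.015 (adjusted p = 0.919). It was also lost without Th17 replicate 1 (adjusted p = 0.0713) and without Th17 replicate 2 (adjusted p = 0.149), with total count scaling (adjusted p = 0.107) and by DESeq2 (adjusted p = 0.115). Sel1l, the partner of HRD1, had 139 and 135 CPM in Th17 cells, against 95.9 and 92.7 CPM in naive cells (1.46-fold higher, adjusted p = 3.84e-06), and Derl2 was 1.27-fold higher.

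Of the 4 translocon members, 2 were higher in Th17 cells and 0 lower by edgeR (50% and 0%, against 37.8% and 34.4% of all genes). Ssr3, a subunit of the TRAP complex beside the Sec61 channel, had 583 and 526 CPM in Th17 cells, against 286 and 265 CPM in naive cells (adjusted p = 1.27e-09). Sec61a1, the channel subunit, was 1.22-fold higher (adjusted p = 0.0019), with 14.6% of its 50-base stretches shared with Gm44170. Ssr1 and Sec61b were not called, and the 95% intervals of their log2 fold changes were -0.06 to 0.29 and -0.17 to 0.63. The count of Sec61b is uncertain, since 41% of its stretches occur in other genes. Ssr1 was called higher when naive replicate 1 was left out (adjusted p = 0.0228).

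**Figure D3:**
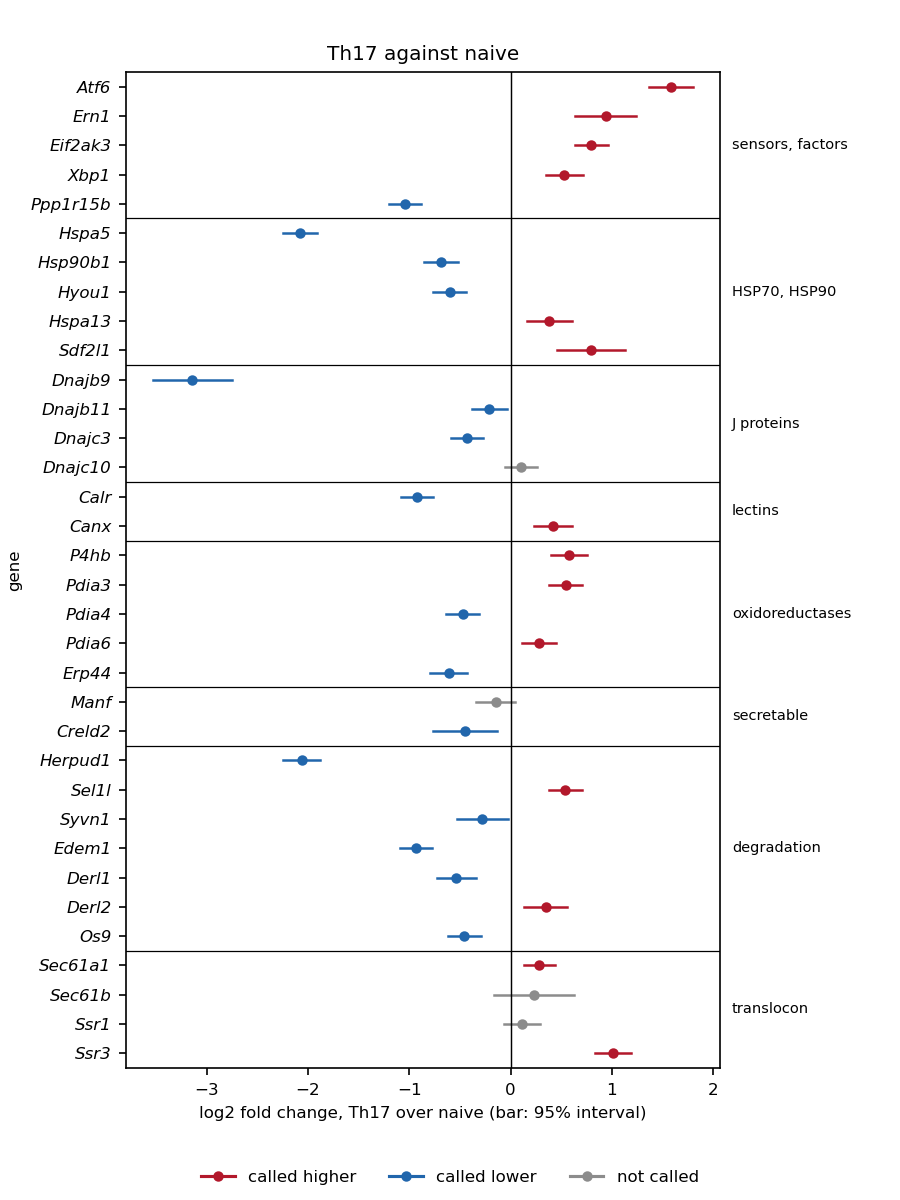
Log2 fold change of Th17 over naive for the 34 members, grouped by role. Points are edgeR estimates, bars are 95% intervals, red is called higher, blue called lower and grey not called. Dnajb9, Hspa5 and Herpud1 lie at -3.14, -2.08 and -2.06, and Atf6 at 1.59.

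Of the 10 members with ERSE or ERSE-II in their window, 2 were higher and 8 lower in Th17 cells, with a median log2 fold change of -0.44. Of all genes tested 37.8% were called higher and 34.4% lower, with a median of 0.035. The 8 lower calls were Hspa5, Hsp90b1, Dnajb11, Dnajc3, Calr, Creld2, Herpud1 and Syvn1. They became 5 without Th17 replicate 2 and by DESeq2, since Dnajb11, Creld2 and Syvn1 were then not called, and the 2 higher calls became 1 without Th17 replicate 1, where Pdia6 was not called. Of the 17 members whose window holds neither, 9 were higher and 5 lower, with a median of 0.35, and the 5 lower calls stayed at 5 in all 11 alternatives. Of the 7 without a window, 3 were higher and 3 lower. The difference between these counts was not tested.

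Lists of other genes of the ER and its stress response gave the surroundings of the members. Of 21 tested genes of UPR signalling outside the set, 4 were higher and 12 lower in Th17 cells (19% and 57.1%). Ppp1r15a, the stress-induced counterpart of Ppp1r15b, had 18.2 and 17 CPM in Th17 cells, against 1130 and 1180 CPM in naive cells. Atf4, the factor translated when PERK is active, had 167 and 152 CPM in Th17 cells, against 613 and 688 CPM in naive cells (log2 fold change -2.03 ± 0.0826 (SE), adjusted p = 7.95e-15). Creb3l2, an ER-bound transcription factor, was 10.5-fold higher in Th17 cells and Mbtps2, a protease that cuts ATF6, 1.9-fold higher. Counts in the other lists were 8 higher and 7 lower of 23 folding enzymes, with Prdx4 2.36-fold higher. They were 8 and 7 of 22 genes of N-glycosylation and the calnexin cycle, with Lman1, a cargo receptor for glycoproteins, 2.13-fold higher. Of 22 further degradation genes, 9 were higher and 7 lower, with Edem3 2.18-fold higher although its relative Edem1 was lower. Of 20 further targeting and translocation genes, 6 were higher and 6 lower, with the signal peptidase subunit Spcs2 2.26-fold higher. Of 19 genes of COPII transport, which carries cargo out of the ER, 9 were higher and 5 lower, with Tfg 2.21-fold higher. The lower genes with the smallest p were Ero1lb (folding), Dad1 (N-glycosylation), Vimp (degradation), Sec63 (targeting) and Tmed10 (COPII). Their log2 fold changes were -1.94, -0.80, -1.26, -0.56 and -1.02, in this order. From folding enzymes to COPII genes, 30 to 47.4% of a list were higher and 26.3 to 31.8% lower. Of all genes tested the shares were 37.8% and 34.4%.

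Cytosolic heat shock genes also separated the groups. Of 13 tested, 1 was higher and 11 lower in Th17 cells (7.69% and 84.6%, against 37.8% and 34.4% of all genes). The stress-induced Hspa1b had 0.422 and 0.58 CPM in Th17 cells, against 266 and 197 CPM in naive cells, and Hspa1a had 0.169 and 0 CPM in Th17 cells, against 113 and 82.9 CPM in naive cells. The list summed to 2510 and 2356 CPM in Th17 cells, against 3290 and 3389 CPM in naive cells. Its part in the lower Hspa5, Dnajb9 and Herpud1 of Th17 cells was not tested.

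Cultures with PAM3CSK4 were set against Th17 cultures to see what this ligand adds during polarization. Fold changes were smaller, and the largest was that of Hspa5, 1.43-fold higher with PAM3CSK4. Atf6, Calr, Manf, Hyou1 and Ppp1r15b were 1.3-fold, 1.29-fold, 1.22-fold, 1.21-fold and 1.2-fold higher, while Eif2ak3 was 1.36-fold and Hspa13 1.3-fold lower. By edgeR 6 of 34 members were called higher and 2 lower, or 17.6% and 5.88%. Of all genes tested 5.21% were called higher and 4.78% lower, so the share of members called lower is near the background. The log2 fold change was above 0 for 26 of 34 members, and its median was 0.11 over the members and -0.0024 over all genes. Markers of cell state moved as well: 5 of 7 Th17 markers were called higher with PAM3CSK4 (median log2 fold change 0.72) and 4 of 7 naive T cell markers lower (median -0.30). The Th17 markers summed to 2705 and 2993 CPM with PAM3CSK4, against 1827 and 2203 CPM in Th17 cells, and the naive T cell markers to 3485 and 3624 CPM, against 4098 and 4388 CPM. Of the 6 plasma cell markers 3 were tested and Sdc1 was called lower, with 62.9 and 70.1 CPM with PAM3CSK4, against 120 and 124 CPM in Th17 cells. The part of these markers in the members' changes was not tested. Libraries with PAM3CSK4 and Th17 libraries did not overlap for 23 of 34 members and for 53% of all genes. The 34 members summed to 6670 and 7050 CPM with PAM3CSK4, against 6422 and 6071 CPM in Th17 cells.

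Hspa5 had 554 and 591 CPM with PAM3CSK4, against 423 and 378 CPM in Th17 cells. Both PAM3CSK4 libraries lay above both Th17 libraries (log2 fold change 0.52 ± 0.0794 (SE), adjusted p = 0.000301) and well below the naive libraries. The gene was called in all 10 alternative settings, with log2 fold changes of 0.44 to 0.60 when single libraries were left out. Calr had 422 and 462 CPM with PAM3CSK4, against 353 and 330.5 CPM in Th17 cells (adjusted p = 0.00369). Hyou1 had 146 and 149 CPM with PAM3CSK4, against 118 and 126 CPM in Th17 cells (adjusted p = 0.0262). Manf, which encodes a protein that BiP retains in the ER, had 88.4 and 103 CPM with PAM3CSK4, against 81.5 and 74.8 CPM in Th17 cells (adjusted p = 0.0466). The groups did not overlap for these genes. Over the 10 alternatives the log2 fold change was 0.30 to 0.43 for Calr (0.37 with all libraries), 0.23 to 0.32 for Hyou1 (0.28) and 0.18 to 0.39 for Manf (0.29), but some calls were lost. The Calr call was lost without PAM3CSK4 replicate 4 (adjusted p = 0.113) and without Th17 replicate 2 (adjusted p = 0.08). The Manf call was lost without PAM3CSK4 replicate 4 (adjusted p = 0.474), Th17 replicate 1 (adjusted p = 0.0631) or Th17 replicate 2 (adjusted p = 0.341), and by DESeq2 (adjusted p = 0.124). The Hyou1 call was lost whichever of the 4 libraries was left out (adjusted p 0.0874 to 0.178).

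The sensor genes diverged with PAM3CSK4. Atf6 had 100.6 and 112 CPM with PAM3CSK4, against 86.6 and 76.5 CPM in Th17 cells (adjusted p = 0.00731). Eif2ak3 had 189.6 and 192 CPM with PAM3CSK4, against 249.5 and 270.5 CPM in Th17 cells (log2 fold change -0.45 ± 0.0759 (SE), adjusted p = 0.00075), and was called in all 10 alternative settings. Atf6 with PAM3CSK4 lay further from its naive level than Atf6 in Th17 cells, and Eif2ak3 lay nearer to it. The Atf6 call was lost without PAM3CSK4 replicate 4 (adjusted p = 0.142) and without Th17 replicate 2 (adjusted p = 0.153), with log2 fold changes of 0.29 to 0.48 over the 10 alternatives, against 0.38 with all libraries. Ern1 had 28.2 and 28.5 CPM with PAM3CSK4, against 22.5 and 22.6 CPM in Th17 cells, and was not called (95% interval of the log2 fold change 0.078 to 0.57, adjusted p = 0.0925). Xbp1 had 253 and 287 CPM with PAM3CSK4, against 255 and 224 CPM in Th17 cells, which overlap, and was not called. Ppp1r15b had 234 and 242 CPM with PAM3CSK4, against 200.4 and 198 CPM in Th17 cells (adjusted p = 0.0325). Hspa13, of the HSP70 group, had 38.4 and 41.5 CPM with PAM3CSK4, against 52.9 and 50.9 CPM in Th17 cells (adjusted p = 0.0217). Both calls were lost whichever of the 4 libraries was left out, with adjusted p of 0.096 to 0.247 for Ppp1r15b and 0.0748 to 0.181 for Hspa13. Their log2 fold changes were 0.23 to 0.28 for Ppp1r15b (0.26 with all libraries) and -0.32 to -0.43 for Hspa13 (-0.38) over the 10 alternatives. Hspa13 was also not called by DESeq2 (adjusted p = 0.0831).

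**Figure D4:**
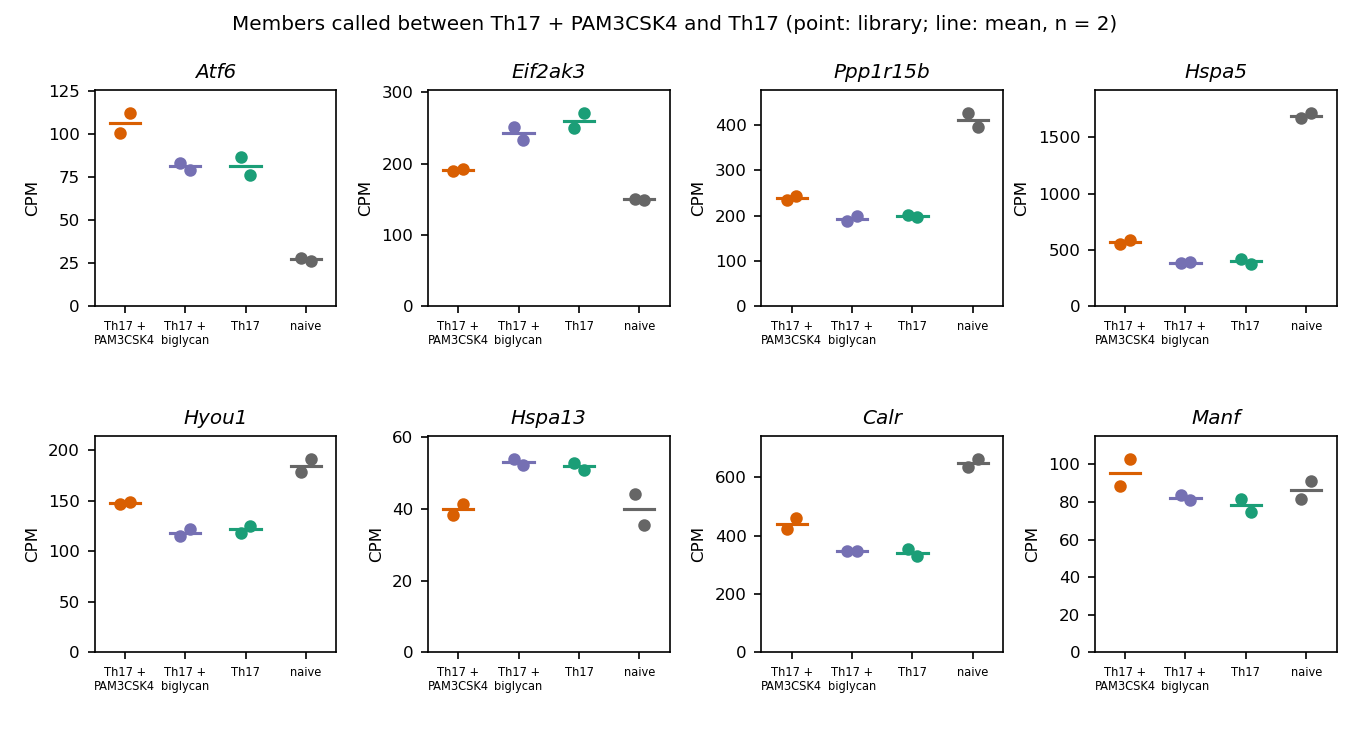
Level in CPM (y axis, from 0) of the 8 members called between Th17 + PAM3CSK4 and Th17, in all 4 groups. Each point is a library and each line the mean of 2. Hspa5, Calr, Hyou1 and Ppp1r15b with PAM3CSK4 lie above Th17 and below naive cells, and Atf6 is highest with PAM3CSK4.

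The other chaperones and folding enzymes were not called with PAM3CSK4. P4hb had 554 and 623 CPM with PAM3CSK4, against 519.9 and 478 CPM in Th17 cells (95% interval of the log2 fold change 0.065 to 0.41, adjusted p = 0.0753). It was called when only the 4 libraries compared were fitted (adjusted p = 0.0349) or genes of low count were kept (adjusted p = 0.0359). Herpud1 had 49.1 and 46.2 CPM with PAM3CSK4, against 41.5 and 39.3 CPM in Th17 cells (interval 0.047 to 0.43, adjusted p = 0.112). Dnajb9 had 16.6 and 23.7 CPM with PAM3CSK4, against 21.8 and 19.5 CPM in Th17 cells, which overlap (interval -0.49 to 0.40). Log2 fold changes ran from -0.046 to 0.24 over the 7 degradation members and from 0.024 to 0.084 over the 4 translocon members. Of the 10 members with ERSE or ERSE-II, 2 were called higher and 0 lower, and of the 17 with neither, 0 were called higher and 1 lower. Of the 7 without a window, 4 were called higher and 1 lower. Among all genes tested 5.21% were called higher and 4.78% lower. The difference between the counts of these groups of members was not tested. Without PAM3CSK4 replicate 4 or without Th17 replicate 2, 1 of the 10 and 0 of the 7 were called higher.

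Of 21 genes of UPR signalling outside the set, 2 were higher and 0 lower with PAM3CSK4 (9.52% and 0%). Among all genes tested 5.21% were called higher and 4.78% lower. Atf4 had 199 and 202 CPM with PAM3CSK4, against 167 and 152 CPM in Th17 cells (1.26-fold, adjusted p = 0.013), and the call was lost without PAM3CSK4 replicate 3 (adjusted p = 0.0759), PAM3CSK4 replicate 4 (0.123) or Th17 replicate 2 (0.196), with log2 fold changes of 0.26 to 0.40 over the alternatives. Wfs1, an ER membrane protein, was 1.61-fold higher (adjusted p = 0.0359), a call lost whichever library was left out (adjusted p 0.0837 to 0.23, log2 fold changes of 0.62 to 0.76 over the alternatives). Of 23 folding enzymes, 2 were higher (Txndc5 and Ero1l, 1.28-fold and 1.25-fold) and 2 lower (Cnpy2 and Cnpy4, with log2 fold changes of -0.36 and -0.36). Calls were 0 of 22 genes of N-glycosylation, 0 of 20 of targeting, 1 lower of 22 of degradation (Ngly1), 1 higher of 19 of COPII transport (Sec24a) and 1 higher of 13 cytosolic heat shock genes (Bag3). Each of these calls was lost without PAM3CSK4 replicate 4, with adjusted p of 0.127 to 0.347, and without Th17 replicate 2, with adjusted p of 0.0956 to 0.308. The heat shock list summed to 2527 and 2680 CPM with PAM3CSK4, against 2510 and 2356 CPM in Th17 cells, and its part in the Hspa5 result was not tested.

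Biglycan was set against the same Th17 libraries, so both ligand comparisons share their controls. By edgeR 0 members were called higher and 0 lower, and of all genes tested 0% were called higher and 0% lower. At an unadjusted p under 0.05 there were 507 genes, or 4.36% of those tested, and 1 of the 34 members, and DESeq2 called 0 genes in either direction. That member was Derl1, with 70.01 and 66.8 CPM with biglycan, against 85.5 and 72.3 CPM in Th17 cells (95% interval of the log2 fold change -0.40 to -0.015, edgeR adjusted p = 1). Libraries with biglycan and Th17 libraries did not overlap for 10 of 34 members and for 34.2% of all genes. The median log2 fold change was 0.00077 over the members and 0 over all genes. Hspa5 had 384 and 391 CPM with biglycan, against 423 and 378 CPM in Th17 cells, which overlap (interval -0.21 to 0.12). Intervals were -0.19 to 0.18 for Atf6, -0.14 to 0.19 for Calr and -0.26 to 0.057 for Eif2ak3. For these 4 genes the estimates with PAM3CSK4, 0.52, 0.38, 0.37 and -0.45 on the same scale, lie outside the intervals for biglycan. All 4 were among the members called with PAM3CSK4, and the Th17 libraries are shared, so this is no test of the difference. The direct test is given below. The interval of Dnajb9 was the widest of the members, -0.30 to 0.61, so a moderate change of this gene was not detectable with these libraries. In each of the other lists of ER and heat shock genes 0 were called by edgeR or DESeq2.

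**Figure D5:**
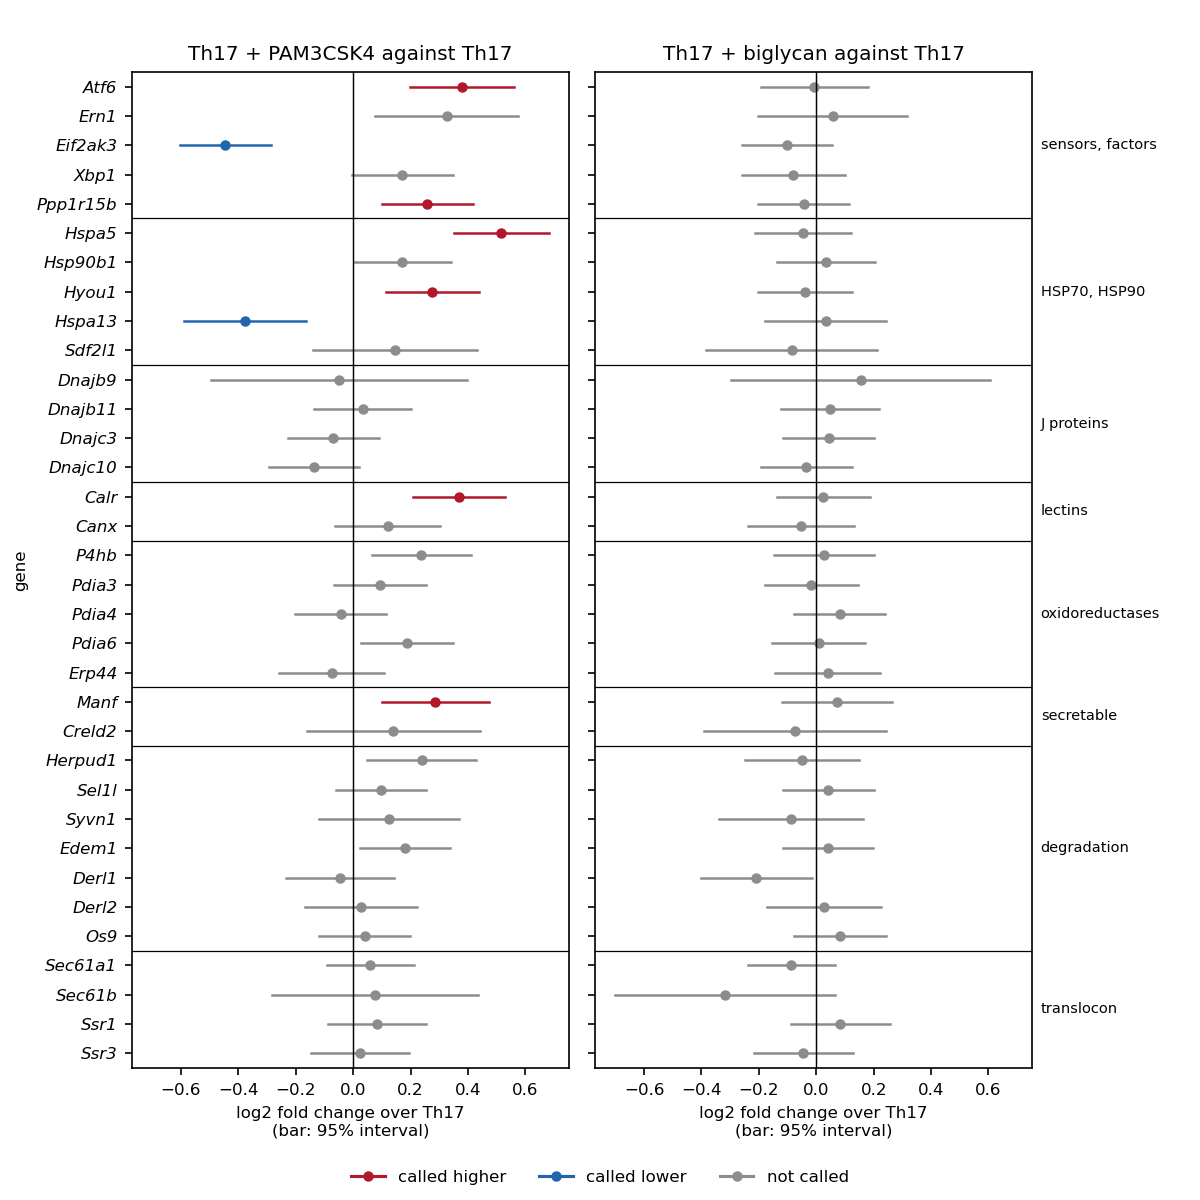
Log2 fold change of Th17 + PAM3CSK4 over Th17 (left) and of Th17 + biglycan over Th17 (right) for the 34 members. Points are edgeR estimates, bars are 95% intervals, red is called higher, blue called lower and grey not called. On the left 8 members are coloured, with Hspa5 at 0.52 and Eif2ak3 at -0.45, and on the right all points are grey.

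The difference between the ligands was tested by setting PAM3CSK4 against biglycan, which uses the same PAM3CSK4 libraries again. By edgeR 5 members were higher and 2 lower with PAM3CSK4, or 14.7% and 5.88%, against 5.66% of all genes called higher and 5.88% called lower. Of 7 Th17 markers 4 were higher with PAM3CSK4 and of 7 naive T cell markers 4 were lower, with medians of 0.50 and -0.31 on the log2 scale. Hspa5 had 554 and 591 CPM with PAM3CSK4, against 384 and 391 CPM with biglycan (1.48-fold higher, adjusted p = 0.000129), and was called in all 10 alternative settings. Atf6 was 1.31-fold higher (adjusted p = 0.00622), Calr 1.27-fold (adjusted p = 0.00585), Hyou1 1.25-fold (adjusted p = 0.0112) and Ppp1r15b 1.23-fold (adjusted p = 0.0124). Eif2ak3 was 1.27-fold lower (adjusted p = 0.00536) and Hspa13 1.33-fold lower (adjusted p = 0.0124). The 6 differences other than Hspa5 kept their direction in all 10 alternatives. Log2 fold changes were 0.27 to 0.46 over the 4 higher members and -0.29 to -0.47 over the 2 lower, against 0.39 for Atf6, 0.34 for Calr, 0.32 for Hyou1, 0.30 for Ppp1r15b, -0.34 for Eif2ak3 and -0.41 for Hspa13 with all libraries. Their calls were all lost without biglycan replicate 7, with adjusted p of 0.0553 to 0.191. Without biglycan replicate 8 they were lost except that of Eif2ak3 (adjusted p 0.0549 to 0.0913), and without PAM3CSK4 replicate 4 except that of Hspa13 (adjusted p 0.0595 to 0.141). Without PAM3CSK4 replicate 3 those of Hyou1, Ppp1r15b, Eif2ak3 and Hspa13 were lost (adjusted p 0.0575 to 0.122). Herpud1 had 49.1 and 46.2 CPM with PAM3CSK4, against 40.5 and 37.7 CPM with biglycan, and was not called (adjusted p = 0.0509). It was called with robust estimation (adjusted p = 0.0499) and with only the 4 libraries compared (adjusted p = 0.027), at a log2 fold change of 0.29 in the last of these. Manf, called against Th17, was 1.16-fold higher than with biglycan and not called (adjusted p = 0.138). Xbp1 had 253 and 287 CPM with PAM3CSK4, against 229.5 and 224 CPM with biglycan, and was not called. It was called higher without the filter on low counts and with only the 4 libraries compared. Canx and P4hb were called higher only in the latter setting.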

How the data were processed

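RNA of 8 libraries was sequenced from stranded Illumina mRNA libraries, per the labels. The submitters' processing notes name Bowtie2, HTSeq and build mm9. Their versions, the annotation and whether counting used strand are not stated in the sources used here, so overlapping and antisense genes cannot be told apart. The count table is as deposited, raw and without scaling by the authors. Its 5 summary lines name no gene and were left out. Genes held 11.7 to 13.7% of the table's total, and reads without a unique alignment 73.5 to 77.1%. The RPKM values deposited by the authors were used only to compare levels between genes. Mitochondrial and ribosomal shares are percent values from a table deposited by the authors. Biglycan columns were linked to samples through their library numbers, because the replicate numbers in the table and in the titles differ; those of the titles are used.

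A single edgeR 4.0.16 model in R 4.3.3 held all 8 libraries with 1 mean for each group (filterByExpr, TMM scaling, glmQLFit, glmQLFTest). The common biological coefficient of variation was 6.19%, with 4 residual and 15.9 prior degrees of freedom. The threshold was 0.05 for the Benjamini-Hochberg adjusted p. CPM uses TMM-adjusted library sizes, and 3 counts in a library equal 0.235 to 0.448 CPM. The procedure was run on counts simulated with the dispersions of this same model. Such a run cannot show whether the spread of these libraries equals that between animals. Alternatives were RLE and total count scaling, no filter on low counts, robust estimation, a fit of only the 4 libraries compared, a replicate block, leaving out each library, and DESeq2 1.42.0. Promoter windows (RefSeq) and 50-base stretches of transcripts (GENCODE) were searched in Python 3.11.15. Members, lists and motifs were chosen with earlier results of these data known. Of each other list, the rule allowed up to 2 called genes per direction with the smallest p to be named. Libraries of a group differed beyond sampling noise, with a chi-square per degree of freedom of 2.37 to 4.99.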

Additional observations from a re-analysis of the deposited data

How the results depend on the processing

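No call changed direction under the alternatives. For Th17 against naive cells, 12 of the 14 higher and 13 of the 16 lower members were called under all 11 alternatives, and counts of calls stayed within 1.5 times. With PAM3CSK4 against Th17, the 606 genes higher and 556 lower became 376 and 352 by DESeq2, and the 2 lower members became 1. Leaving out a library gave 199 to 463 genes higher, 155 to 464 lower, 1 to 4 members higher and 1 lower. With biglycan against Th17, the 0 genes became 14 higher and 15 lower without a filter on low counts, and 1 lower with total count scaling or with only the 4 libraries compared. Leaving out a library gave 0 to 1 higher and 0 to 4 lower, and 0 members. With PAM3CSK4 against biglycan, the 658 genes higher and 684 lower became 1108 and 1120 with only the 4 libraries, where 9 members were higher instead of 5, and 413 and 439 by DESeq2. Leaving out a library gave 168 to 360 genes higher, 175 to 421 lower, 1 to 3 members higher and 0 to 1 lower. Fewer libraries were fitted there, with a lone library assumed to vary like the other groups, and the cause of the other shifts was not tested. With the replicate block, which only naive and Th17 cells allowed, 4262 genes were higher and 3908 lower, and 14 and 16 members. The labels do not say whether equal numbers mark paired libraries. Deviations of equally numbered naive and Th17 libraries had a correlation of 0.0276 over 11629 genes. With 2 libraries per group this value cannot decide whether they are paired.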
